A study of Mus musculus with 4 samples.

Results

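The genes of the transforming growth factor beta (TGF-beta) and bone morphogenetic protein (BMP) pathways were examined in the RNA-seq counts of mechanically loaded and unloaded osteocyte-like cells. The group was a list of 42 gene names, put together by place in the pathway and with earlier results of these data known. Each name was found among the 55450 genes of the count table. Of the 42 members, 38 passed the filter on low counts and were tested, among 16269 tested genes in all. MLO-Y4 is an established cell line derived from the long bones of mice that carried a viral T antigen driven by the osteocalcin promoter, and here a single line was used throughout. The loaded group was 2 libraries from cells on a collagen-coated silicone membrane, stretched equally in all directions for 12 h at 0.5 Hz and 20% strain. The unloaded group was 2 libraries from cells on ordinary plates, placed for the same time in the incubator that housed the stretching device. The stretch and the surface under the cells therefore cannot be told apart. Nothing in the sources used here says whether the replicates came from separate cultures, so p-values measure only the spread between these samples.

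TGF-beta and activin ligands and BMP ligands are secreted proteins that bind paired type I and type II receptor kinases. The activated receptors phosphorylate SMAD proteins, with SMAD2 and SMAD3 serving TGF-beta and activin and SMAD1 and SMAD5 serving BMP, and these enter the nucleus with SMAD4. TGF-beta is secreted in a latent form held in the matrix by latent TGF-beta binding proteins, BMP and activin ligands are bound by secreted antagonists such as gremlin and follistatin, and the *Id* genes are among the best known direct targets of BMP signalling. In bone, TGF-beta is stored in the matrix and released during resorption, and BMPs drive the formation of osteoblasts.

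Libraries held between 28941994 and 32185693 counts, of which between 91348 and 103783 fell on the 42 members. Levels are given as CPM, each count relative to the library total after TMM scaling. A count of 0 allows a level of up to 3 counts, or 0.0929 to 0.103 CPM depending on the library, a limit that reflects counting error alone. Among 9 osteocyte markers, *Phex*, *Pdpn*, *Gja1* and *Cd44* were expressed in all libraries, whereas *Dmp1*, *Mepe*, *Sost*, *Fgf23* and *Dkk1* were below 1 CPM in each. Of 7 markers of macrophages and other blood cells, 4 were below 1 CPM in all libraries, *Ptprc* and *Adgre1* among them, and the summed level of the list was between 1561 and 1588 CPM, most of it *Csf1r*. The summed level of 10 interferon-stimulated genes was 509 and 483 CPM in the unloaded libraries and 162 and 167 CPM in the loaded libraries. The part of this difference in the results below was not tested.

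Across the pathway, the antagonists *Grem1* and *Fst* were higher in loaded cells, the target genes *Id1*, *Id2* and *Id3* were lower, and the latent TGF-beta binding protein genes *Ltbp2* and *Ltbp3* were lower. The intervals of the BMP receptor genes spanned 0. In bulk RNA, fewer cells that express a gene and less of its RNA per cell cannot be told apart. No member passed the study's threshold, an adjusted p under 0.01, in the quasi-likelihood test of edgeR, which called 0.0983% of all tested genes. At an unadjusted p under 0.05 the same test gave 16 members, 9 higher and 7 lower, against 14.3% of all tested genes (6.88% higher and 7.46% lower). DESeq2, the tool that the study used, called 5 of the 37 members for which it gave an adjusted p at that threshold of 0.01. These were *Grem1* and *Fst*, which were higher, and *Ltbp2*, *Ltbp3* and *Id3*, which were lower, against 2.91% of 12484 genes called in all (1.36% higher and 1.55% lower).

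At an adjusted p under 0.05, edgeR called 4 of the 38 members (10.5%), against 0.904% of all tested genes, namely *Grem1*, *Ltbp2*, *Ltbp3* and *Id3*. DESeq2 called 10 of the 37 (27.0%), against 4.88%, adding *Id1*, *Id2* and *Smad3* on the lower side and *Inhba* and *Tgfbr1* on the higher side to its 5 genes. The edgeR count at 0.05 was 2 (*Ltbp2* and *Ltbp3*) with no filter, and 1 (*Ltbp2*) with the replicate block. Leaving out a library left a lone library in its group, so effect sizes are compared for those fits. The 4 genes that edgeR called did not overlap between the groups. Leaving out a library could therefore hardly turn their sign, and only the size of the difference is informative. The log2 fold changes were then -0.78 to -0.70 for *Ltbp2* and -0.89 to -0.76 for *Ltbp3*. They were 0.49 to 0.56 for *Grem1* and -1.19 to -0.87 for *Id3*. The loaded and unloaded libraries did not overlap for 25 of the 38 tested members, 13 higher and 12 lower, against 46.6% of all tested genes (22.1% higher and 24.5% lower). The tested members were more highly expressed than most genes, with a median level of 65.1 CPM against 19.3 CPM over all tested genes. Among genes of at least 10 CPM, an unadjusted p under 0.05 was reached by 16 of 30 members, against 18.8% of all such genes. The list was put together with earlier results known, so a larger share among the members is a description and not independent support. The median log2 fold change, loaded against unloaded, was -0.01 over the members and -0.01 over all tested genes. The interquartile range was -0.36 to 0.18 for the members and -0.20 to 0.16 for all tested genes.

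**Figure D1:**
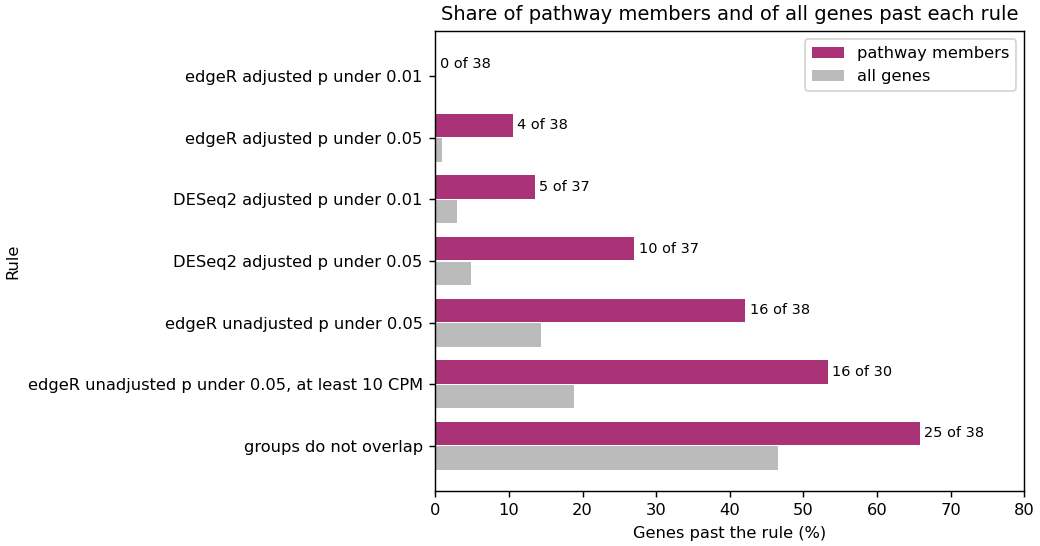
Percentage of the tested pathway members (purple) and of all genes (grey) past each rule, with the number of members written beside the bar. At an edgeR adjusted p under 0.01 there is no member (0 of 38). The member bar is the longer under the other 6 rules drawn, from 4 of 38 members at an edgeR adjusted p under 0.05 to 25 of 38 members whose groups do not overlap. The members were listed with earlier results of these data known.

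The direct targets *Id1*, *Id2* and *Id3* encode inhibitors of basic helix-loop-helix transcription factors. *Id3* (chromosome 4, 136143497 to 136145755, GRCm38) was at 46.9 and 48.6 CPM in the unloaded libraries (1364 and 1474 counts) and at 21 and 26.2 CPM in the loaded libraries (678 and 781 counts). Both loaded libraries lay well below both unloaded libraries. The log2 fold change was -1.02 (standard error, SE, 0.131, 95% interval -1.34 to -0.70), and the adjusted p was 0.0374 in edgeR and 2.16e-07 in DESeq2. *Id2* (chromosome 12, 25093799 to 25097140) was at 25.6 and 24.5 CPM in unloaded cells (743 and 742 counts) and at 16.3 and 16.0 CPM in loaded cells (527 and 476 counts). For *Id2* the log2 fold change was -0.63 (SE 0.111), and the adjusted p was 0.0812 in edgeR and 0.0295 in DESeq2. The gap between the groups was larger than the spread between replicates, and the threshold of 0.01 was missed with either tool.

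*Id1* (chromosome 2, 152736251 to 152737410) was at 47.0 and 45.4 CPM in unloaded cells (1365 and 1377 counts) and at 33.5 and 32.4 CPM in loaded cells (1083 and 965 counts). For *Id1* the log2 fold change was -0.49 (SE 0.0936), and the adjusted p was 0.1 in edgeR and 0.0274 in DESeq2. The loaded libraries were lower without overlap for the 3 *Id* genes, as for 24.5% of all tested genes, and their median was -0.63 on the log2 scale. *Id3* had the largest difference of any tested member. Without overlap, leaving out a library could hardly turn their sign. The log2 fold changes were then -1.19 to -0.87 for *Id3*, -0.66 to -0.59 for *Id2* and -0.51 to -0.45 for *Id1*.

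The 250 bases before the RefSeq start (GRCm38.p6) were searched for CAGAC, the short SMAD binding element, for GGCGCC, a site bound by BMP-activated SMADs, and for GGCGCC followed after any 5 bases by GTCT, on both strands. The matches before *Id2* and *Id3* are shown with their flanks because these target genes were lower in loaded cells, with the motif in capitals and in the direction of the gene. Both windows overlap annotated exons of longer transcripts of the same genes, so only the sites are printed. *Id1* had no entry in the promoter table used. The *Id2* site lies at chr12:25096306-25096335 on the minus strand, and the *Id3* sites lie at chr4:136143643-136143671 and chr4:136143742-136143770 on the plus strand, where GTCTG is CAGAC read on the other strand.
*Id2*, GGCGCC: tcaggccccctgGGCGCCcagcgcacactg
*Id3*, CAGAC, far site: tgtcctcggcgtCAGACcagcctaaggaa
*Id3*, CAGAC, near site: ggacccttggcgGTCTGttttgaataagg
CAGAC was found in 16 of the 35 windows of the 29 members in the table (45.7%) and in 42.2% of 32851 windows of the same length over all genes. GGCGCC was found in 10 of the 35 windows (28.6%) and in 9.59% of all windows, and the joint motif in 0 member windows and in 0.07% of all windows. Overlapping windows of *Ltbp4* hold the same GGCGCC site. GGCGCC consists of G and C only, and the GC content of the windows was not taken into account. A match describes the letters alone.

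**Figure D2:**
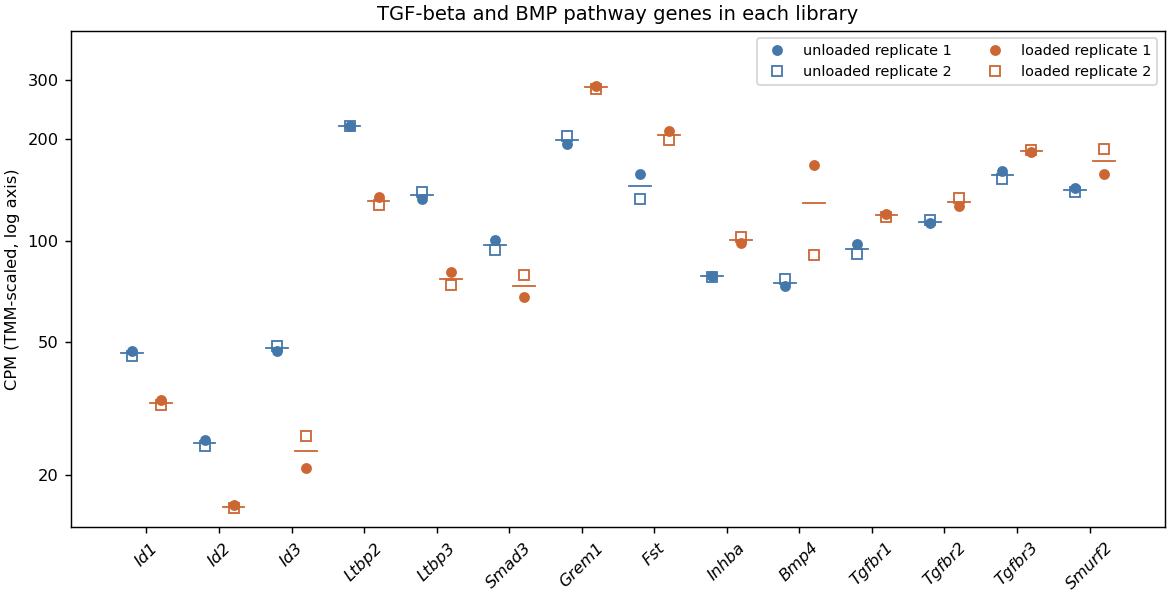
CPM of 14 pathway genes on a log axis, with a point for each library (blue unloaded, orange loaded, filled replicate 1, open replicate 2) and a line at each group mean. *Id1*, *Id2*, *Id3*, *Ltbp2*, *Ltbp3* and *Smad3* lie lower in both loaded libraries and the other 8 genes higher, and the loaded libraries of *Bmp4* lie far apart at 168 and 90.8 CPM.

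Among the secreted antagonists, gremlin, the product of *Grem1*, binds and blocks BMP ligands. *Grem1* (chromosome 2, 113746164 to 113758646) was at 194 and 205 CPM in unloaded cells (5628 and 6206 counts) and at 289 and 283 CPM in loaded cells (9349 and 8436 counts). The replicates lay close together and the groups apart. Its difference on the log2 scale was 0.52 (SE 0.0637, 95% interval 0.37 to 0.68), and the adjusted p was 0.0351 in edgeR and 1.34e-07 in DESeq2. Per kilobase of exon it was the most abundant member, at 48.0 in unloaded and 69.0 in loaded cells on the CPM per kilobase scale. Its promoter is printed because *Grem1* was the highest member and differed between the groups. The window is chr2:113758649-113758898 on the minus strand, ends at the base before the start, and has CAGAC and GGCGCC in capitals.
*Grem1*: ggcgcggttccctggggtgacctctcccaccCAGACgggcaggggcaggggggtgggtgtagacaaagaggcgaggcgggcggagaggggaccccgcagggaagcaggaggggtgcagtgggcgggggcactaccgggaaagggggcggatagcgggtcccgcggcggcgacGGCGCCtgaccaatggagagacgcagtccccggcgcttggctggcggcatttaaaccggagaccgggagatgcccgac

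*Fst* encodes follistatin, which binds activins and, less tightly, some BMPs. *Fst* (chromosome 13, 114452290 to 114458951) was at 158 and 133 CPM in unloaded cells (4584 and 4029 counts) and at 212 and 199 CPM in loaded cells (6862 and 5934 counts). Its unloaded replicates were more spread than those of *Grem1*, and the groups did not overlap. For *Fst* the log2 fold change was 0.50 (SE 0.0984), and the adjusted p was 0.105 in edgeR and 0.00016 in DESeq2. The other antagonists on the list were hardly counted. *Nog*, which encodes noggin, was listed at 0 in all 4 libraries, and *Chrd*, which encodes chordin, had 4 counts in unloaded replicate 2 and 0 in the other libraries. Both were below the filter.

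The latent TGF-beta binding proteins anchor latent TGF-beta in the matrix, apart from the product of *Ltbp2*, which does not bind the latent complex and takes part in elastic fibres. *Ltbp2* (chromosome 12, 84783212 to 84876532) was at 219 and 219 CPM in unloaded cells (6372 and 6650 counts) and at 135 and 128 CPM in loaded cells (4348 and 3813 counts). For *Ltbp2* the log2 fold change was -0.74 (SE 0.0662, 95% interval -0.90 to -0.58), and the adjusted p was 0.0137 in edgeR, the smallest of the members, and 7.19e-13 in DESeq2. *Ltbp3* (chromosome 19, 5740904 to 5758532) was at 133 and 139.6 CPM in unloaded cells (3864 and 4234 counts) and at 80.5 and 73.6 CPM in loaded cells (2600 and 2194 counts). The groups were wide apart for both genes. For *Ltbp3* the log2 fold change was -0.82 (SE 0.0834, 95% interval -1.03 to -0.62), and the adjusted p was 0.0209 in edgeR and 1.91e-11 in DESeq2. Whether the counting used the strand is not given in the sources used here, and exons of *Ltbp2* share 764 bases with D030025P21Rik on the opposite strand, which had between 49 and 189 counts.

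*Ltbp1* was the most abundant latency gene, at 461 and 457 CPM in unloaded cells (13387 and 13872 counts) and 381 and 422 CPM in loaded cells (12315 and 12578 counts). Its log2 fold change of -0.19 (SE 0.0679, adjusted p of 0.285 in edgeR and 0.247 in DESeq2) was smaller than those of *Ltbp2* and *Ltbp3*. *Ltbp4* was far less abundant, at 9.84 ± 0.726 CPM in unloaded and 7.61 ± 0.847 CPM in loaded cells (SD, n = 2 per group, adjusted p of 0.416 in edgeR). The loaded libraries were the lower ones, without overlap, for each of the 4 *Ltbp* genes, as they were for 24.5% of all tested genes, and *Ltbp1* and *Ltbp4* passed no adjusted threshold with either tool. *Bmp1*, which despite its name encodes a procollagen C-proteinase that also cleaves latency proteins and chordin, was at 69.3 ± 2.96 CPM in unloaded and 69.5 ± 3.77 CPM in loaded cells (SD, n = 2 per group), and its 95% interval of -0.22 to 0.23 spans 0 on the log2 scale. The stretches before the starts of *Ltbp2* (chr12:84876533-84876741, minus strand) and *Ltbp3* (chr19:5740650-5740899, plus strand) are shown because these genes had the smallest p among the members. Annotated exon bases are left out of the *Ltbp2* stretch, and CAGAC or its reverse complement is in capitals.
*Ltbp2*: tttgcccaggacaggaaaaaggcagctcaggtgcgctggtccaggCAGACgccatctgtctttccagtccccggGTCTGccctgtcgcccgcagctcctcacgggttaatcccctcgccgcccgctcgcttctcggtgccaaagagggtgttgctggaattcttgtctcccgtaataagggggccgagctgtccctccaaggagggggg
*Ltbp3*: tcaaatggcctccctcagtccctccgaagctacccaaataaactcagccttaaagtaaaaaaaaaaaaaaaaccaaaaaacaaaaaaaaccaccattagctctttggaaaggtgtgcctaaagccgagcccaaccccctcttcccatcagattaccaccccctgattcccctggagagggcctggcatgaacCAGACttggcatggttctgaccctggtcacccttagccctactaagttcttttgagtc

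Among the ligands of the TGF-beta and activin branch, *Inhba*, which encodes the subunit of activin A, was the highest per kilobase. It was at 78.6 and 78.0 CPM in unloaded cells (2284 and 2365 counts) and at 98.1 and 102 CPM in loaded cells (3167 and 3048 counts). The log2 fold change was 0.36 (SE 0.0788), and the adjusted p was 0.134 in edgeR and 0.0244 in DESeq2. The gap between the groups was thus clear but small. *Tgfb1*, the most abundant TGF-beta ligand gene per kilobase, was at 39.7 ± 2.42 CPM in unloaded and 43.4 ± 0.64 CPM in loaded cells (SD, n = 2 per group), with a 95% interval of -0.11 to 0.37 on the log2 scale. *Tgfb2* was at 10.8 ± 0.0548 and 8.69 ± 0.898 CPM, and *Tgfb3* at 14 ± 0.875 and 13.7 ± 1.8 CPM. None of these 3 genes reached an unadjusted p under 0.05 in edgeR. *Inhbb*, which encodes the other activin subunit on the list, was listed at 0 in all 4 libraries.

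*Bmp4* was the main BMP ligand gene, and its loaded replicates disagreed. It was at 73.1 and 76.6 CPM in unloaded cells (2126 and 2325 counts) and at 168 and 90.8 CPM in loaded cells (5424 and 2708 counts). Loaded replicate 1 stood apart from the other 3 libraries. The log2 fold change was 0.79 (SE 0.266, adjusted p of 0.266 in edgeR and 0.409 in DESeq2), and it was 0.28 without loaded replicate 1 and 1.17 without loaded replicate 2. *Bmp2* was at 8.88 ± 1.52 CPM in unloaded and 6.79 ± 1.3 CPM in loaded cells, and *Bmp6* at 2.36 ± 0.262 and 3.18 ± 0.231 CPM (SD, n = 2 per group), with edgeR adjusted p of 0.5 and 0.536. *Bmp7* was listed at 0 in all 4 libraries.

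**Figure D3:**
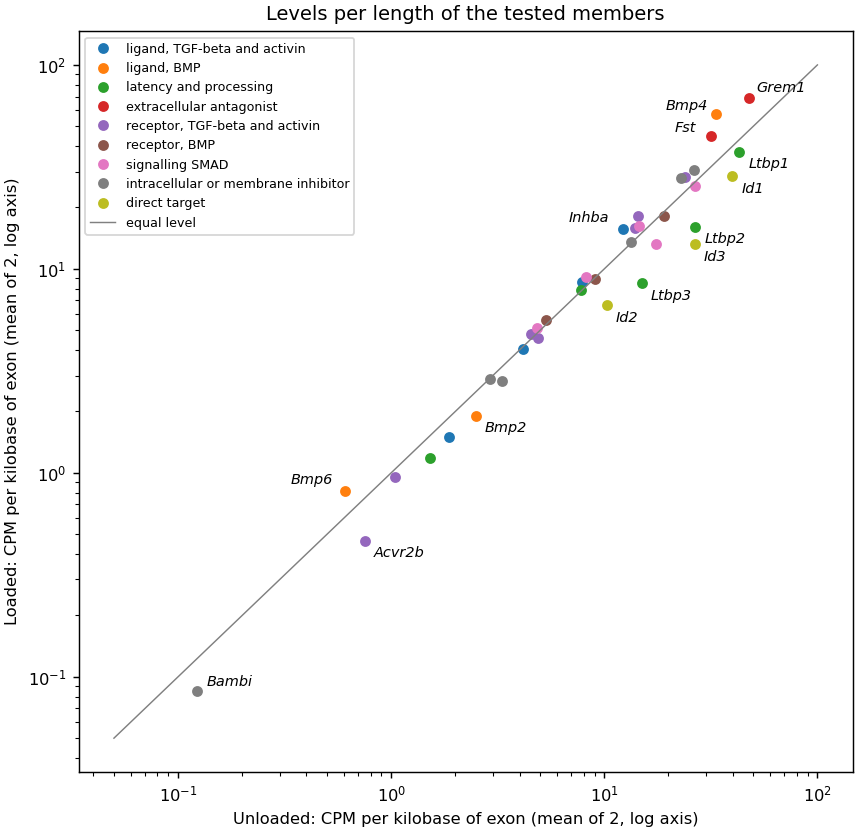
Mean CPM per kilobase of exon in unloaded (x axis) and loaded cells (y axis) of the 38 tested members, on log axes, coloured by role, with a grey line at equal levels. *Grem1*, *Fst* and *Bmp4* lie above the line at the upper end, and the 3 *Id* genes, *Ltbp2* and *Ltbp3* lie below it.

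Per kilobase of exon, where levels of different genes can be compared, the 5 most abundant members in unloaded cells were *Grem1* (48.0 CPM per kilobase), *Ltbp1* (42.9), *Id1* (39.8), *Bmp4* (33.3) and *Fst* (31.7). In loaded cells the order was *Grem1* (69.0), *Bmp4* (57.5), *Fst* (44.8), *Ltbp1* (37.6) and *Smurf1* (30.5), and *Id1* (28.4) was no longer among them. *Bmp4* was at 74.7 CPM per kilobase in loaded replicate 1 and at 40.4 in loaded replicate 2, so its place above *Fst* in loaded cells rests on loaded replicate 1. The lowest tested member was *Bambi*, which encodes a receptor-like protein without a kinase domain, at 0.123 and 0.0849 CPM per kilobase from 10 to 21 counts in a library.

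No receptor gene passed an adjusted p of 0.01 with either tool. The loaded libraries were higher without overlap for the 3 *Tgfbr* genes, as for 22.1% of all tested genes, and the groups overlapped for the other 7 receptor genes. *Tgfbr1*, the type I receptor gene, was at 97.6 and 91.0 CPM in unloaded cells (2838 and 2762 counts) and at 120.1 and 118 CPM in loaded cells (3878 and 3515 counts). *Tgfbr2*, the type II receptor gene, was at 113 and 115 CPM in unloaded cells (3284 and 3488 counts) and at 126 and 134 CPM in loaded cells (4085 and 4004 counts). *Tgfbr3* encodes betaglycan, a co-receptor that presents ligand, and was the highest receptor gene per kilobase. It was at 161 and 153 CPM in unloaded cells (4674 and 4638 counts) and at 184 and 186 CPM in loaded cells (5927 and 5553 counts). The gaps were small beside the levels. The log2 fold changes were 0.33 for *Tgfbr1* (SE 0.0773), 0.19 for *Tgfbr2* (SE 0.0728) and 0.24 for *Tgfbr3* (SE 0.0662). In the same order the adjusted p was 0.14, 0.313 and 0.19 in edgeR and 0.0297, 0.339 and 0.117 in DESeq2.

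The activin receptor genes *Acvr1b* and *Acvr2a* had log2 fold changes of -0.10 and 0.07, with 95% intervals of -0.40 to 0.21 and -0.20 to 0.34. *Acvr2b* was scarce and uneven, with 53 and 124 counts in unloaded and 57 and 56 counts in loaded cells. *Eng*, which encodes the co-receptor endoglin, had 129 and 121 counts in unloaded and 101 and 136 counts in loaded cells. Among receptors for BMP, *Bmpr1a* was the highest per kilobase, at 122 and 120.1 CPM in unloaded cells (3555 and 3644 counts) and at 109 and 121 CPM in loaded cells (3513 and 3614 counts). The difference was -0.08 on the log2 scale (SE 0.0823, adjusted p of 0.734 in edgeR and 0.892 in DESeq2). For *Bmpr2* and *Acvr1* the log2 fold changes were -0.02 and 0.08, with 95% intervals of -0.24 to 0.21 and -0.26 to 0.41, beside -0.28 to 0.12 for *Bmpr1a*. Over all 10 receptor genes 5 had a positive and 5 a negative log2 fold change, with a median of 0.03.

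Of the SMAD genes, *Smad3* was the only one with an unadjusted p under 0.05. It was at 101 and 94.0 CPM in unloaded cells (2924 and 2852 counts) and at 68.1 and 78.8 CPM in loaded cells (2199 and 2351 counts), with both loaded libraries lower. The log2 fold change was -0.41 (SE 0.103, 95% interval -0.66 to -0.16), and the adjusted p was 0.162 in edgeR and 0.0273 in DESeq2. *Smad2*, its partner in the TGF-beta branch, had a log2 fold change of 0.15 (95% interval -0.06 to 0.36), and the difference between these genes was not tested. *Smad4*, which encodes the common partner of both branches, had the highest level of the SMAD genes per kilobase. It was at 97.0 and 102 CPM in unloaded cells (2821 and 3083 counts) and at 97.2 and 91.2 CPM in loaded cells (3139 and 2720 counts), a difference of -0.08 on the log2 scale (SE 0.0809, adjusted p of 0.726 in edgeR and 0.895 in DESeq2). The BMP-branch genes *Smad1* and *Smad5* had log2 fold changes of 0.09 and 0.16, with edgeR adjusted p of 0.834 and 0.554.

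The inhibitors inside the cell did not share a direction. *Smurf1* and *Smurf2* encode ubiquitin ligases that mark SMADs and receptors for degradation. *Smurf1* was at 163 and 172 CPM in unloaded cells (4751 and 5218 counts) and at 200.02 and 187 CPM in loaded cells (6460 and 5573 counts). *Smurf2* was at 143 and 139.9 CPM in unloaded cells (4165 and 4245 counts) and at 158 and 187 CPM in loaded cells (5096 and 5570 counts). Both were higher in each loaded library than in any unloaded one, as were 22.1% of all tested genes. The log2 fold changes were 0.21 (SE 0.0713) and 0.28 (SE 0.0949). The adjusted p was 0.279 and 0.264 in edgeR and 0.228 and 0.105 in DESeq2. *Smad7* and *Skil*, which encode feedback inhibitors induced by TGF-beta, had log2 fold changes of 0.03 and -0.01, with 95% intervals of -0.21 to 0.27 and -0.30 to 0.28. *Smad6*, a feedback inhibitor induced by BMP, was at 10.7 ± 0.631 CPM in unloaded and 9.02 ± 0.188 CPM in loaded cells (SD, n = 2 per group), or -0.24 on the log2 scale (adjusted p of 0.547 in edgeR).

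**Figure D4:**
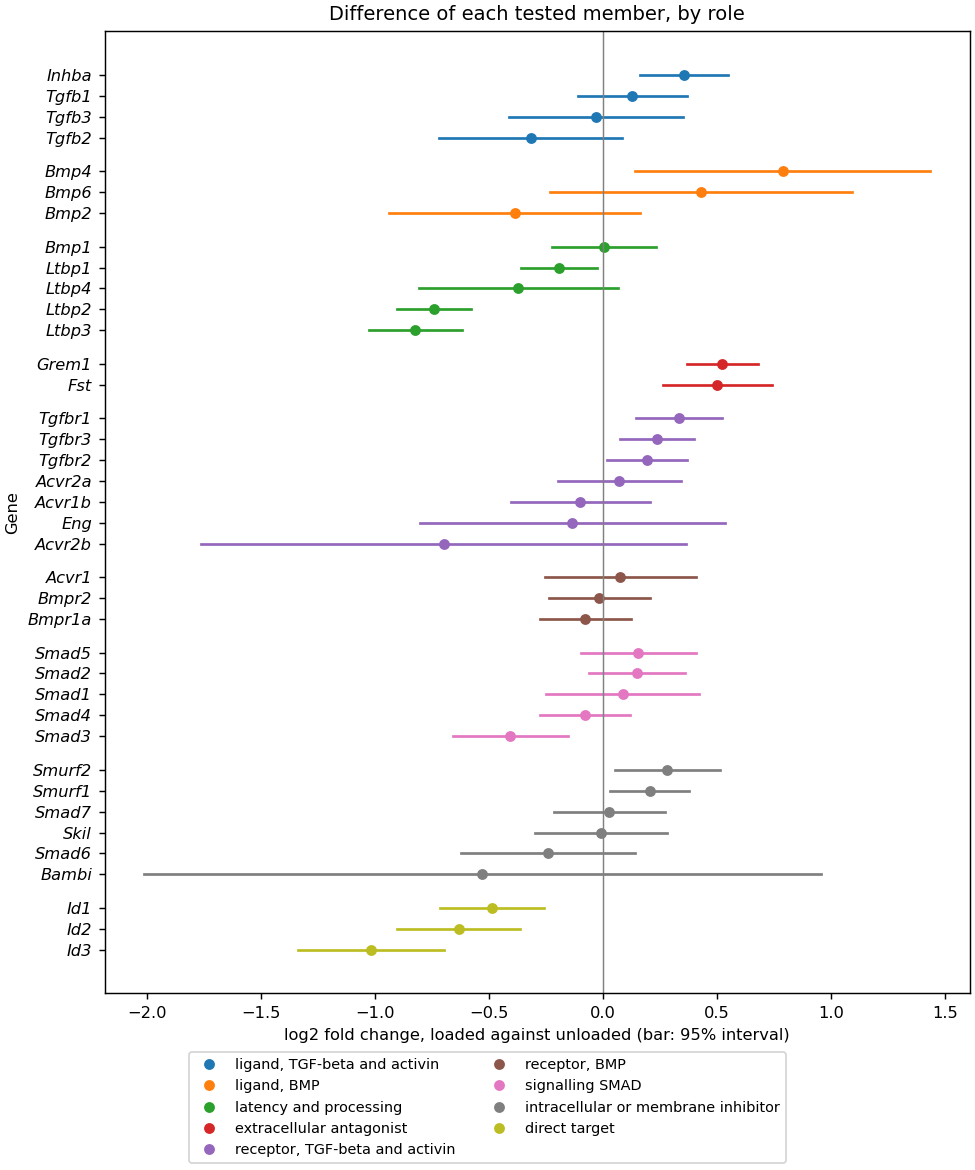
Log2 fold change of each of the 38 tested members, loaded against unloaded, with its 95% interval from the edgeR fit, grouped and coloured by role. The intervals of the 3 *Id* genes and of *Ltbp1*, *Ltbp2*, *Ltbp3* and *Smad3* lie below 0, those of *Grem1*, *Fst*, *Inhba*, *Bmp4*, the 3 *Tgfbr* genes and both *Smurf* genes lie above 0, and the others span it.

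Set side by side, the roles differed in their medians. The median log2 fold change was 0.51 over the 2 tested extracellular antagonists, 0.13 over the 7 tested ligands, 0.03 over the 10 receptors, 0.09 over the 5 signalling SMADs, 0.01 over the 6 inhibitors inside the cell or in its membrane, -0.37 over the 5 latency and processing genes and -0.63 over the 3 *Id* genes. These are descriptions of few genes each, and the difference between roles was not tested. Over 11 tested further extracellular antagonists of the wider list the median was 0.11. Of these 11, 3 were higher and 5 lower without overlap, against 22.1% higher and 24.5% lower of all tested genes.

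A wider list of 109 other pathway genes, compiled by role, held 71 tested genes. Of these, 40 had a positive and 31 a negative log2 fold change, with a median of 0.04. None passed an edgeR adjusted p of 0.01, and 16 of the 71 had an unadjusted p under 0.05 (10 higher and 6 lower), against 14.3% of all tested genes. DESeq2 gave an adjusted p for 61 of them and called 5, of which 4 were higher and 1 was lower, against 2.91% of all genes. *Map3k7*, which encodes the kinase TAK1 of the branch that does not use SMADs, was at 104 and 79.8 CPM in unloaded cells. It was at 189 and 183 CPM in loaded cells. The edgeR log2 fold change was 1.02 (SE 0.129), and the adjusted p was 0.0369 in edgeR and 1.42e-13 in DESeq2. *Neo1*, which encodes neogenin, a receptor for the BMP co-receptors of the RGM family, was at 199 and 192 CPM in unloaded cells. It was at 277 and 303 CPM in loaded cells. The edgeR log2 fold change was 0.57 (SE 0.0712), and the adjusted p was 0.0369 in edgeR and 3.44e-08 in DESeq2. Both genes were higher in loaded cells without overlap, as were 22.1% of all tested genes.

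The other genes that DESeq2 called on the wider list were *Gdf11*, *Ccn1* and *Bgn*. *Gdf11*, an activin-like ligand, was at 46.8 ± 1.47 CPM in unloaded and 67.3 ± 5.58 CPM in loaded cells (SD, n = 2 per group, adjusted p of 0.105 in edgeR and 0.00295 in DESeq2). *Ccn1*, a matricellular gene induced by TGF-beta and by YAP, was at 204 ± 10.1 and 254 ± 8.29 CPM (adjusted p of 0.129 in edgeR), and its DESeq2 adjusted p lay just under the threshold. *Bgn*, which encodes biglycan, a matrix proteoglycan that binds TGF-beta and is one of the further extracellular antagonists, was lower, at 195 and 224 CPM in unloaded and 151 and 165 CPM in loaded cells (adjusted p of 0.134 in edgeR and 0.00389 in DESeq2). Among 22 tested further targets 8 had a positive and 14 a negative log2 fold change. The targets named below were picked out with their values known, as were the follistatin-like antagonists *Fstl1* and *Fstl3*. *Fstl1* was at -0.29 on the log2 scale (adjusted p of 0.18 in edgeR) and *Fstl3* at 0.35 (adjusted p of 0.448 in edgeR). *Atoh8*, a BMP target, was at -0.57 on the log2 scale (adjusted p of 0.195 in edgeR). The TGF-beta target *Ccn2* was at 0.22 (adjusted p of 0.184 in edgeR). *Tgfbi*, also a TGF-beta target, was at -0.48 (adjusted p of 0.444 in edgeR). The direction of either branch cannot be read from these picks.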

How the data were processed

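RNA-seq counts of 2 unloaded and 2 loaded MLO-Y4 libraries were used, grouped by sample title. The authors depleted ribosomal RNA, mapped trimmed reads to mm10 with HISAT2 2.1.0, ran StringTie 1.3.5 and deposited whole-number counts per gene made by the prepDE script, without normalization. All 55450 identifiers were found in GENCODE M21 (GRCm38), which gave coordinates and exon lengths. In edgeR 4.0.16 (R 4.3.3), filterByExpr at a count minimum of 10 set the genes kept, TMM the scaling, and the quasi-likelihood F test the p-values, with Benjamini-Hochberg adjustment over 16269 genes and an adjusted p threshold of 0.01. The standard error was taken as the size of the log2 fold change over the root of F. CPM uses the total of all genes times the TMM factor (0.983 to 1.01). DESeq2 1.42.0, limma-voom (limma 3.58.1), RLE factors, other filters, the replicate block, leaving out each library and a threshold of 0.05 were alternatives. DESeq2 at 0.05 was added after seeing the data. The fits were tested on simulated data. Promoters are from the RefSeq table (GRCm38.p6), in which 29 of the 42 members had an entry.

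Members and lists were chosen with earlier results of these data known. Named in full are members with an unadjusted edgeR p under 0.05 or a DESeq2 adjusted p under 0.01, members below the filter and the highest member per kilobase in each role, and from the wider list the genes called by either tool. Some items, among them an overlap between genes, are not reported here.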

Additional observations from a re-analysis of the deposited data

How the results depend on the processing

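With 2 libraries per group the edgeR test at 0.01 called 0 members higher and 0 lower, and 2 genes higher and 14 lower in all. Both member counts were also 0 with limma-voom (3 and 13 genes in all) and with RLE factors (2 and 14). They were 0 as well with no filter and with the replicate block. In those settings 0 genes were called in all, so the member counts there say nothing about the members. DESeq2 called 2 of 37 members higher and 3 lower (4 and 1 of 61 on the wider list), against 2.91% of all genes. At 0.05, a setting added after seeing the data, it called 4 higher and 6 lower (6 and 2), against 4.88%. At an edgeR adjusted p under 0.05 there were 1 higher and 3 lower of 38 (2 higher of 71 on the wider list), against 0.904%. With at least 10 counts in every library 1 member, *Ltbp2*, was called lower, beside 4 genes higher and 25 lower in all. Leaving out a library gave 0 to 1 genes of the wider list higher, the 1 without unloaded replicate 1. Same-numbered libraries did not deviate together (correlation -0.057). With the replicate block the adjusted p was 0.0419 for *Ltbp2*, 0.053 for *Id3* and *Ltbp3*, 0.105 for *Grem1* and 0.123 for *Fst*, with log2 fold changes of -0.74, -1.03, -0.82, 0.52 and 0.51. The sign turned without 1 library, with log2 fold changes from -0.17 to 0.10 for *Tgfb3*, -0.052 to 0.058 for *Bmp1*, -0.12 to 0.082 for *Bmpr2*, -0.072 to 0.25 for *Acvr1*, -0.011 to 0.17 for *Acvr2a*, -0.071 to 0.27 for *Smad1*, -0.048 to 0.10 for *Smad7*, -0.43 to 0.11 for *Eng* and -0.13 to 0.10 for *Skil*, which was 0.00102 with RLE factors. The other 29 members kept their sign, the 5 called by DESeq2 among them. The groups of those 5 did not overlap, so their sign could hardly turn. Where a library was left out, the lone library was assumed to vary like the others.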
